A study of Rattus norvegicus with 6 samples.

Results

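Steroid hormones of the testis are made and inactivated by a short chain of enzymes, and 9 rat genes of that chain and of the Leydig cell were followed in cultured testis cells of 2 ages: Akr1c14, Hsd11b1, Star, Cyp11a1, Cyp17a1, Srd5a1, Lhcgr, Insl3 and Nr3c1. The genes were listed by name, and each was represented by the probe set of highest mean signal among those with exactly 1 gene symbol. Of the 9 genes, 8 had such a probe set, among 14506 genes in all, and each of the 8 had only 1. Srd5a1, which encodes an enzyme that reduces testosterone to dihydrotestosterone, was not analysed here.

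RNA came from primary cultures of testis cells of 21-day-old rats and of 9-day-old rats, labelled as Sertoli cells, with 3 Affymetrix arrays for each age. Cells of both ages were untreated apart from growth in DMEM/F12 with 10% fetal bovine serum and a change of medium to purify them. The labels give neither the strain nor the number of rats behind a culture, and do not say that replicates were separate cultures, so p-values describe the variation among these 6 samples, which could be technical. Values are log2 signals made by the authors with RMA, which sets no zero, so signals of different genes were not ranked as amounts. The percentile of a signal among all probe sets of its array is given only to show roughly how weak or strong it was.

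In the testis, Leydig cells lie between the tubules and respond to luteinizing hormone by turning cholesterol into androgens. Star brings cholesterol into the mitochondrion, Cyp11a1 cuts its side chain to give pregnenolone, and Cyp17a1 leads on to the androgens. Lhcgr is the receptor for luteinizing hormone and Insl3 a peptide hormone of the Leydig cell. Sertoli cells, inside the tubule, respond to androgens and to follicle-stimulating hormone. Akr1c14 and Hsd11b1 act on finished steroids, and Nr3c1 is the receptor that glucocorticoids bind.

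The starts of 3 of the genes are shown because they stand for the groups described below: Akr1c14 had the largest age difference of the 8 genes, Cyp11a1 is the first enzyme of steroid synthesis, and Insl3 is a hormone of the Leydig cell. Each window holds 250 bases before and 50 bases after the start site, 5′ to 3′ on the strand of the gene, from RefSeq on GRCr8. Capitals mark AGGTCA, a core motif of Nr5a1 and related nuclear receptors, and TATAA, the core of the TATA box, on either strand. AGAACA, a core motif of the glucocorticoid receptor, was searched too.
Akr1c14, chr17:71083135-71083434, minus strand: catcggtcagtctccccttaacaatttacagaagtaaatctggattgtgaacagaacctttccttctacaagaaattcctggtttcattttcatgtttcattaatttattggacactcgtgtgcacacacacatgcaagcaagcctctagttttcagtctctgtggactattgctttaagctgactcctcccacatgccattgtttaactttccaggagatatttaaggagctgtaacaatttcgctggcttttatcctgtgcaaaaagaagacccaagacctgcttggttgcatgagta
Cyp11a1, chr8:67318415-67318714, plus strand: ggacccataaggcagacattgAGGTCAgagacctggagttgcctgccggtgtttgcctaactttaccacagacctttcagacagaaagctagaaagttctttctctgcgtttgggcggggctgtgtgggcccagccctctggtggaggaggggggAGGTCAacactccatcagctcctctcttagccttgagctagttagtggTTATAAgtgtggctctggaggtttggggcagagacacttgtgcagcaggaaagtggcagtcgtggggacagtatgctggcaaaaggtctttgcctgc
Insl3, chr16:18432939-18433238, plus strand: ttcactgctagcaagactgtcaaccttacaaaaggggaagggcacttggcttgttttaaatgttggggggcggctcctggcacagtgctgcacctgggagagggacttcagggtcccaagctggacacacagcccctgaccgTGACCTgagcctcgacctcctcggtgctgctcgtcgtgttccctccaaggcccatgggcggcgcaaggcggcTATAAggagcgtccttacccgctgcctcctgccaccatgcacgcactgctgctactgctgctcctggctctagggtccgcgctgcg

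Windows were found for 6 of the 9 genes, and not for Hsd11b1, Star and Cyp17a1. The window of Cyp11a1 held AGGTCA 2 times, from -229 to -224 and from -95 to -90, and TATAA from -46 to -42, where the opposite strand reads the same letters shifted by 1 base. The window of Insl3 held AGGTCA on the opposite strand, from -108 to -103, and TATAA from -36 to -32. Lhcgr, not shown, held AGGTCA from -133 to -128. Thus 3 of the 6 genes held AGGTCA, as did 16.2% of all 33469 windows of that length. TATAA was in 2 of the 6 genes and in 26.2% of windows, and AGAACA in 0 of the 6 and in 20.7% of windows. The window of Akr1c14 held none of the 3 motifs. A match is a string of letters and not a measured binding site.

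In limma, a linear model fitted over all 14506 genes, 0 of the 8 genes reached an adjusted p under 0.05, as did 0% of all genes. By direction alone 5 of the 8 were higher at 21 days, against 46.5% of all genes, and 1 of the 8, Akr1c14, differed at least 2-fold, against 0.427%. At an unadjusted p under 0.05 there were 2 of the 8, Akr1c14 and Hsd11b1, both higher at 21 days, against 2.97% of all genes. Their 3 values at 21 days lay above all 3 values at 9 days, as did those of Cyp11a1. Such a separation upwards was seen for 2.74% of all genes, and 0 of the 8 were separated downwards, against 2.98%. The genes were listed with earlier results of these data known, so these counts describe the list and are no test of it.

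The arrays numbered 3 differed from the others at both ages. Both arrays numbered 3 lay away from the rest, at 32.5 (21 days) and 18.8 (9 days) on the first principal component of all genes, which took up 50.8% of the variance, with the other 4 arrays between -21.2 and -8.91. The 9 measured markers of peritubular myoid and smooth muscle cells averaged 8.55, 8.00 and 9.87 at 21 days in replicates 1, 2 and 3, against 8.62, 8.77 and 10.0 at 9 days. Differences are therefore also given within each pair of arrays of the same number. On the first principal component, 9-day-old replicate 2 (-12.0) lay nearer to 21-day-old replicate 1 (-9.23) than to 21-day-old replicate 2 (-21.2). Whether arrays numbered 1 or 2 were true pairs is thus not known.

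Of the 20 markers listed for Sertoli cells, 9 had a signal below the median of the array on all 6 arrays, among them Amh, Fshr, Gata1 and Cldn11, while Wt1, Clu and Tf lay above it on all 6. The Sertoli list averaged 4.35 to 4.99 at 21 days and 4.10 to 4.18 at 9 days. Of its 20 genes, 19 were higher at 21 days, against 46.5% of all genes. Its median difference was 0.196, far below its largest ones, 3.59 for Tf, 1.72 for Defb36 and 1.16 for Shbg. All 9 smooth muscle markers and all 9 fibroblast markers lay above the array median on all 6 arrays, with fibroblast list means of 8.34 to 8.67 at 21 days and 8.53 to 8.68 at 9 days. Macrophage markers averaged 3.07 to 3.16 at 21 days and 3.05 to 3.18 at 9 days, with 9 of 12 below the median on every array. Germ cell markers averaged 3.35 to 3.58 at 21 days and 3.38 to 3.43 at 9 days, with 8 of 11 below the median on every array, and endothelial markers 3.32 to 3.55 at 21 days and 3.17 to 3.53 at 9 days, with 5 of 7 below it. Median differences of the macrophage, germ cell and endothelial lists were -0.021, 0.0044 and 0.070. No marker of these lists passed. In such bulk samples, fewer cells of a type and less RNA per cell cannot be told apart.

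**Figure D1:**
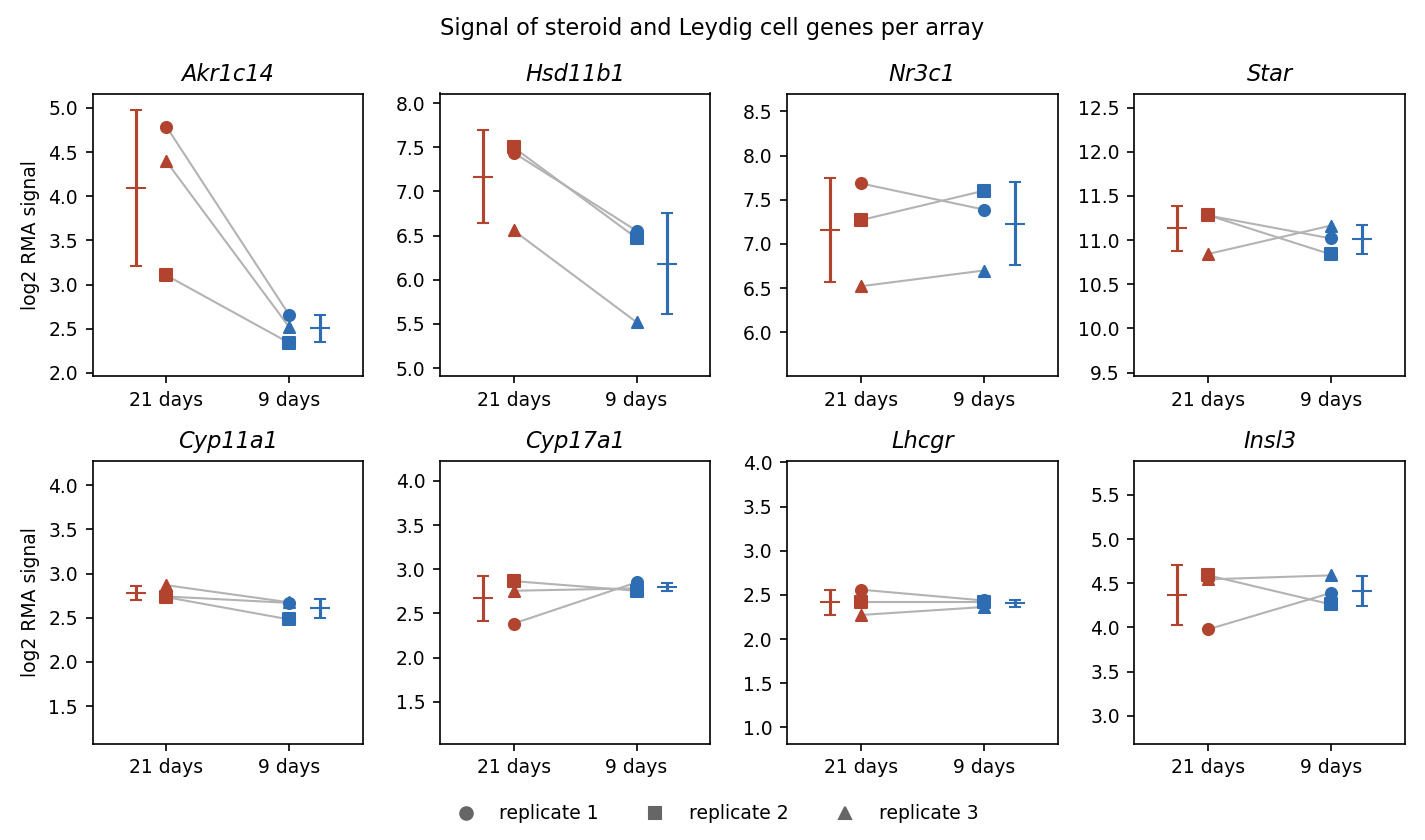
Log2 RMA signal of the 8 genes on each array, with 21 days left and 9 days right in each panel. Symbols give the replicate number, grey lines join arrays of the same number, and bars beside the points give the mean and SD (n = 3). Every panel spans the same log2 range. Akr1c14 and Hsd11b1 are higher at 21 days along all 3 lines.

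Akr1c14 encodes the rat 3-alpha-hydroxysteroid dehydrogenase, an aldo-keto reductase that turns dihydrotestosterone into the weak androgen androstanediol. Its log2 signal was 4.79, 3.10 and 4.39 at 21 days, against 2.65, 2.34 and 2.52 at 9 days. The 3 values at 9 days lay close together, while those at 21 days were spread, with replicate 2 lowest, and the gap between the ages was 0.45. The means were 4.10 ± 0.88 at 21 days and 2.50 ± 0.16 at 9 days (SD, n = 3 each). The difference was 1.59 ± 0.43 on the log2 scale (SE), or 3.02-fold, with a limma 95% interval from 0.53 to 2.65. It was the 19th largest of the 14506 differences towards 21 days.

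The adjusted p of Akr1c14 in limma was 1.00, with an unadjusted p of 0.0107. Within the pairs numbered 1, 2 and 3 the gene differed by 2.13, 0.77 and 1.88. All pairs ran the same way. Akr1c14, Hsd11b1 and Cyp11a1, 3 of the 8 genes, were higher at 21 days in all 3 pairs, against 10.7% of all genes, and 0 of the 8 were lower in all 3, against 14.4%. With the replicate number as a block the adjusted p in limma was 0.390. Without both arrays numbered 3 the difference was 1.45. On the 9-day-old arrays the signal lay between the 15.0th and 25.6th percentile of all probe sets. On the 21-day-old arrays it lay between the 36.8th and 61.2nd. Without detection calls it is unknown whether the signal at 9 days exceeded background, so the size of the fold difference is uncertain.

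Akr1c14 sits in a cluster of 9 aldo-keto reductase 1C genes on chromosome 17 of the RefSeq assembly, of which 6 others had a probe set of their own. Sequences of the family are alike, so probes may also pick up neighbours. Of the direct neighbours, Akr1c3, whose enzyme reduces progesterone in rat and was formerly named Akr1c18, averaged 2.76 ± 0.26 at 21 days and 2.43 ± 0.08 at 9 days (SD, n = 3 each), a difference of 0.33 ± 0.14 (SE). Akr1c15, on the other side, averaged 3.13 ± 0.49 at 21 days and 2.87 ± 0.30 at 9 days, a difference of 0.26 ± 0.28. Both were higher at 21 days in all 3 pairs, with unadjusted limma p of 0.0566 and 0.385.

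The other 4 genes of the cluster differed by less. The differences were 0.12 for Akr1c1, 0.0031 for Akr1c19, -0.023 for Akr1c2 and -0.054 for Akr1c12. All 6 neighbours had signals below the array median on all 6 arrays, and of the 7 measured genes only Akr1c14 exceeded it, on 2 of the 3 arrays at 21 days. Whether Akr1c14 differed more than its neighbours was not tested.

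**Figure D2:**
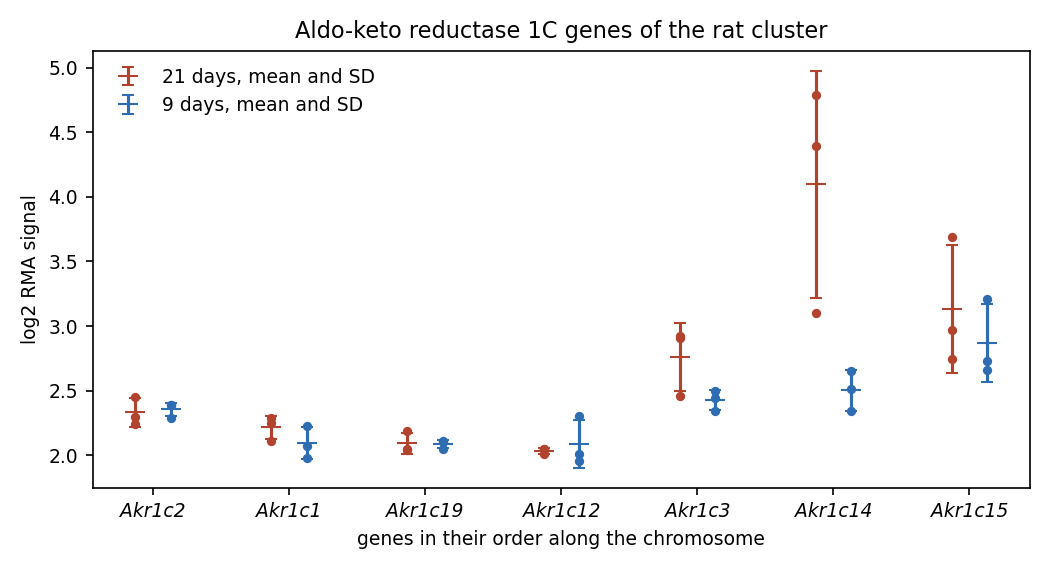
Log2 RMA signal of 7 genes of the aldo-keto reductase 1C cluster in their order along rat chromosome 17, with 21 days left of 9 days for each gene. Points are arrays and bars the mean and SD (n = 3). Akr1c14 averages 4.10 at 21 days and 2.50 at 9 days, while the other 6 genes differ by at most 0.33.

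Hsd11b1 encodes a microsomal dehydrogenase that, with NADPH, turns inactive dehydrocorticosterone back into corticosterone, the glucocorticoid of the rat. Its log2 signal was 7.44, 7.50 and 6.56 at 21 days, against 6.55, 6.47 and 5.52 at 9 days. Replicate 3 was the lowest array at each age, and the lowest value at 21 days exceeded the highest at 9 days by only 0.0045. The means were 7.16 ± 0.53 at 21 days and 6.18 ± 0.58 at 9 days (SD, n = 3 each), a difference of 0.98 ± 0.38 (SE), or 1.98-fold, with a limma 95% interval from 0.055 to 1.91.

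Within pairs the difference of Hsd11b1 was 0.88, 1.03 and 1.04, so that the pairs differed far less among themselves than the arrays of an age did. The adjusted p in limma was 1.00, with an unadjusted p of 0.0411. With the replicate number as a block the SE was 0.073, the unadjusted p 5.02e-05 and the adjusted p 0.146, so the gene missed the threshold in both fits. With the block, unadjusted p-values under 0.05 were found for 2 of the 8 genes, again Akr1c14 and Hsd11b1, against 7.73% of all genes, or 3.29% counting only those higher at 21 days. Without 9-day-old replicate 3 the difference was 0.65, and without both arrays numbered 3 it was 0.96.

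Genes that work with or against Hsd11b1 were at moderate or low signal. H6pd, which supplies its NADPH inside the endoplasmic reticulum, averaged 5.72 at 21 days and 5.98 at 9 days, a difference of -0.26 ± 0.17 (log2, SE), and was lower at 21 days in all 3 pairs. Hsd11b2, whose enzyme runs the opposite reaction and inactivates corticosterone, averaged 3.21 at 21 days and 3.19 at 9 days, below the array median on all 6 arrays, with a difference of 0.018 ± 0.14. The unadjusted limma p of H6pd was 0.185, and the limma 95% interval of Hsd11b2 ran from -0.33 to 0.36.

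Nr3c1, the glucocorticoid receptor, is a transcription factor that moves to the nucleus when corticosterone binds. Its log2 signal was 7.69, 7.27 and 6.52 at 21 days, against 7.39, 7.60 and 6.70 at 9 days. The ages overlapped widely, and replicate 3 was again the lowest array at each age. The means were 7.16 ± 0.59 at 21 days and 7.23 ± 0.47 at 9 days (SD, n = 3 each). The difference of -0.071 ± 0.37 (SE) had a limma 95% interval from -0.97 to 0.83, with an adjusted p of 1.00, and the pairs gave 0.30, -0.33 and -0.18. That interval, from the fit without the replicate block, is wide, so these arrays do not show that the receptor was alike at the 2 ages. With the replicate number as a block the SE was 0.14 and the adjusted p in limma 0.922. All 6 values lay between the 79.8th and 89.3rd percentile of their arrays.

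Of 24 listed target genes of the glucocorticoid receptor 21 were measured. At 21 days 10 were higher and 11 lower, and the list had a median difference of -0.0024, against -0.0093 over all genes. No gene of the list passed. The largest differences were 0.45 ± 0.30 (log2, SE) for Lcn2, which encodes the secreted iron-siderophore carrier lipocalin, -0.26 ± 0.26 for Errfi1, an inhibitor of epidermal growth factor receptor signalling, and -0.22 ± 0.08 for the zinc finger gene Zbtb16. Lcn2 differed by 1.34 in the pair numbered 3 and by 0.017 and -0.017 in the other pairs. Errfi1 differed by -0.19, -0.38 and -0.22 in the pairs, and Zbtb16 by -0.079, -0.31 and -0.28. With the replicate number as a block the SE of Errfi1 was 0.077 and its adjusted p in limma 0.547. Fkbp5, a cochaperone of the receptor that glucocorticoids induce, differed by 0.22 ± 0.15 and was higher at 21 days in all 3 pairs. Tsc22d3, another common target, differed by -0.12 ± 0.09 and was lower in all 3 pairs. Of the 21 genes, 1, Fkbp5, was higher in all 3 pairs, against 10.7% of all genes. Another 5, Tsc22d3 among them, were lower in all 3, against 14.4%.

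Among 17 measured steroid receptors, cochaperones and coregulators, 6 were higher and 11 lower at 21 days. The median difference was -0.042, and 0 passed. The mineralocorticoid receptor gene Nr3c2 and the estrogen and progesterone receptor genes Esr1, Esr2 and Pgr were below the array median on all 6 arrays. The largest differences were -0.25 ± 0.17 for the coactivator gene Ncoa3, 0.22 ± 0.15 for Fkbp5 and -0.20 ± 0.16 for Ptges3, the cochaperone p23 (log2, SE).

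**Figure D3:**
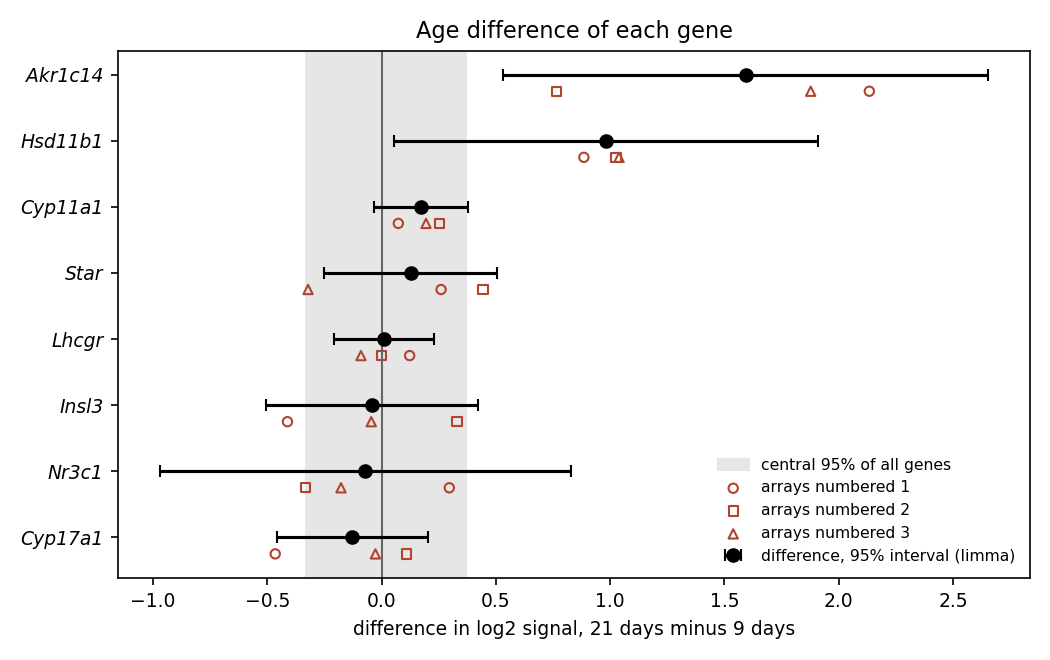
Difference in log2 signal, 21 days minus 9 days, for the 8 genes. Black points and bars give the limma estimate and its 95% interval, open symbols the differences within arrays of the same number, and the grey band the central 95% of all 14506 genes, from -0.33 to 0.37. Akr1c14 and Hsd11b1 lie outside the band and the other 6 inside it.

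Star had a strong signal at both ages. It was at 11.3, 11.3 and 10.8 on the log2 scale at 21 days, against 11.0, 10.8 and 11.2 at 9 days, between the 98.8th and 99.3rd percentile of all probe sets on every array. The ages overlapped, with means of 11.13 ± 0.25 at 21 days and 11.01 ± 0.16 at 9 days (SD, n = 3 each). The difference was 0.13 ± 0.15 (SE), with a limma 95% interval from -0.25 to 0.51 and an adjusted p of 1.00. The first 2 pairs gave 0.26 and 0.44 and the pair numbered 3 gave -0.32, so that the difference without both arrays numbered 3 was 0.35.

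Cyp11a1, the enzyme that acts on the cholesterol Star delivers, had a low signal at both ages. Its signal was 2.74, 2.73 and 2.87 at 21 days, against 2.67, 2.48 and 2.67 at 9 days (log2). The 3 values at 21 days lay above those at 9 days, by a gap of 0.059, and the difference was 0.17 ± 0.08 (SE), with an unadjusted limma p of 0.0845 and an adjusted p of 1.00. Within pairs it was 0.073, 0.25 and 0.19. All 6 values were below the medians of their arrays, between the 20.2nd and 31.0th percentile. Without detection calls it is unknown whether such a signal exceeded background.

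Cyp17a1 was at 2.38, 2.87 and 2.76 at 21 days, against 2.85, 2.76 and 2.78 at 9 days (log2). Only 21-day-old replicate 1 lay apart from the other arrays, and the difference of -0.13 ± 0.13 (SE) became 0.014 without it. The limma 95% interval ran from -0.46 to 0.20, with an adjusted p of 1.00. This gene too was below the array median on all 6 arrays, between the 16.4th and 31.4th percentile.

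Lhcgr was at 2.56, 2.42 and 2.27 at 21 days, against 2.44, 2.42 and 2.36 at 9 days (log2). The ages overlapped, and the signal lay between the 12.5th and 22.9th percentile, below the lower quartile of the array on all 6. The difference was 0.011 ± 0.089 (SE), with a limma 95% interval from -0.21 to 0.23 and an adjusted p of 1.00. Its sign turned when arrays were centred on their medians (-0.0085), and at such a low signal a small difference says little about the transcript.

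Insl3 was at 3.98, 4.59 and 4.54 at 21 days, against 4.39, 4.26 and 4.59 at 9 days (log2). The ages overlapped, with 21-day-old replicate 1 the lowest of all 6 arrays. The difference was -0.043 ± 0.19 (SE), with a limma 95% interval from -0.51 to 0.42 and an adjusted p of 1.00, and it was 0.15 without that array. The signal lay between the 52.6th and 59.0th percentile, above the array median on all 6.

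**Figure D4:**
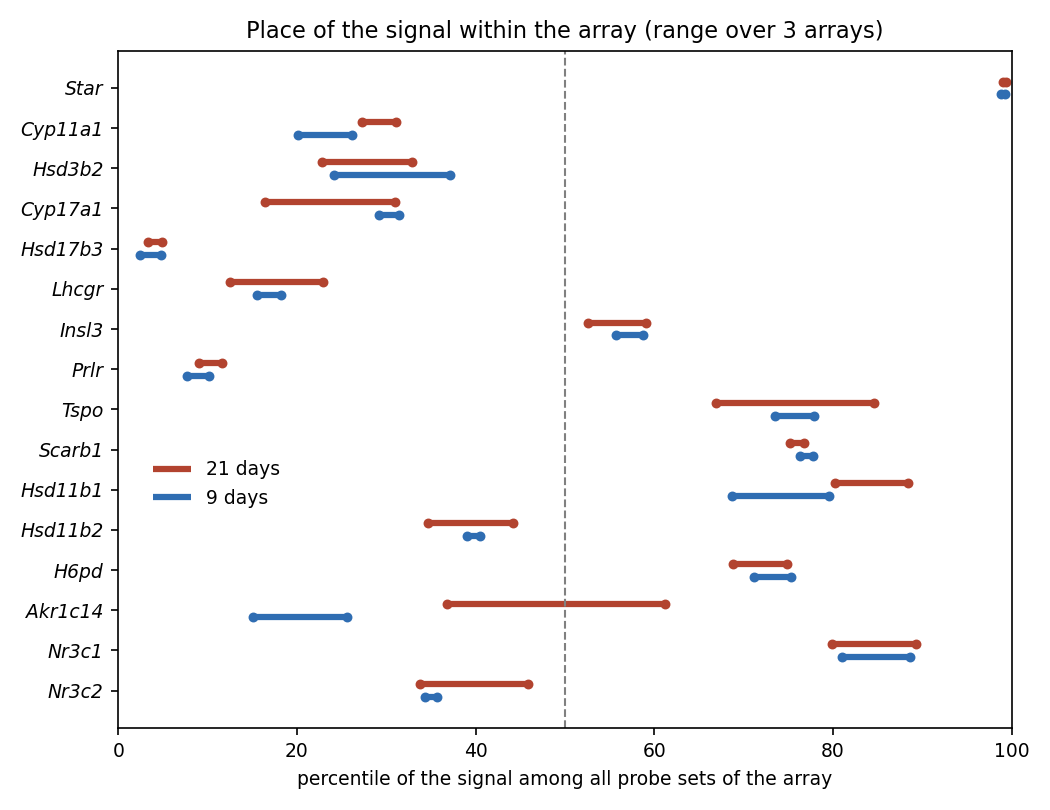
Place of each signal among all 29214 probe sets of its array, as a percentile. Each bar spans the 3 arrays of an age, with 21 days above 9 days, for the 8 genes and related genes of steroid synthesis, glucocorticoid metabolism and their receptors, and the dashed line marks the array median. Star lies above the 98th percentile, while Cyp11a1, Hsd3b2, Cyp17a1, Hsd17b3 and Lhcgr lie below the median at both ages.

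Other genes of steroid synthesis had signals on either side of the array median. Of 23 listed genes 19 were measured, and 9 of them were below the array median on all 6 arrays, among them Hsd3b2 and Hsd17b3, which encode dehydrogenases of progesterone and of testosterone synthesis. Genes with wider use, such as Por, the electron donor of microsomal cytochromes, Fdx1, the electron carrier of Cyp11a1, and Gata4, a transcription factor of testis somatic cells, were above the median on all 6. At 21 days 11 genes were higher and 8 lower. The median difference was 0.021, and 0 passed.

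The largest difference of that list was -0.77 ± 0.15 (log2, SE) for Cyp11b1, an enzyme of glucocorticoid synthesis best known from the adrenal cortex. Its means were 2.39 ± 0.23 at 21 days and 3.16 ± 0.16 at 9 days (SD, n = 3 each), without overlap and lower at 21 days in all 3 pairs. The unadjusted limma p was 0.00206 and the adjusted p 1.00. Its near copy Cyp11b2, the aldosterone synthase, differed by -0.32 ± 0.14, also without overlap, and the signals of such copies cannot be told apart with certainty. Of the 19 measured genes, these 2 were lower without overlap, against 2.98% of all genes, and 0 were higher, against 2.74%. Both signals were below the array median on all 6 arrays, and that of Cyp11b2 was below the lower quartile on 4. Hsd17b7, which acts in both cholesterol and estrogen synthesis, differed by 0.23 ± 0.14, with 0.63, 0.081 and -0.018 in the pairs.

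Of 26 listed genes of steroid inactivation and reduction 21 were measured, and 13 of these were higher and 8 lower at 21 days. The median difference was 0.018, and 0 passed. Cyp7b1, a hydroxylase of oxysterols and androgen metabolites, differed by -0.61 ± 0.37 (log2, SE), with -0.15, -0.48 and -1.20 in the pairs. Akr1c3 followed with 0.33, and Akr1b7, an aldo-keto reductase, with 0.31 ± 0.17. In this list 6 genes were higher at 21 days in all 3 pairs: the aldo-keto reductase genes Akr1b7, Akr1c1, Akr1c3, Akr1c15 and Akr1d1, and the dehydrogenase gene Hsd17b11 (0.27 ± 0.24). These were 6 of 21 genes, against 10.7% of all genes. Of the 21, 2 were lower in all 3 pairs, Cyp7b1 and H6pd, against 14.4%. The aldo-keto reductase genes named as higher in all 3 pairs were all below the array median on all 6 arrays. Probes for those of the Akr1c cluster may also pick up neighbours. Srd5a3, a reductase gene related to Srd5a1 and needed for dolichol synthesis, differed by -0.0031 ± 0.10.

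Cholesterol supply and the pathway of luteinizing hormone were measured beside these enzymes. Of 13 measured genes of cholesterol synthesis, uptake and storage 5 were higher and 8 lower at 21 days. Their median difference was -0.051, and the largest differences were 0.15 ± 0.10 for Npc2, 0.13 ± 0.21 for Insig1 and -0.12 ± 0.10 for the hormone-sensitive lipase gene Lipe (log2, SE). Of 17 genes of luteinizing hormone signalling 7 were higher and 10 lower, and the median was -0.023. Rxfp2, the receptor of Insl3, differed by -0.28 ± 0.14 at a signal below the array median, Nr4a1, an orphan nuclear receptor that cyclic AMP induces, by 0.27 ± 0.29, and the kinase subunit gene Prkar2a by -0.15 ± 0.15. In the pairs Rxfp2 differed by -0.39, -0.14 and -0.32, Nr4a1 by 0.20, 0.31 and 0.28, and Prkar2a by -0.0077, -0.55 and 0.12. With the replicate number as a block the SE of Nr4a1 was 0.069 and its adjusted p in limma 0.496. No gene of either list passed.

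Markers of Leydig cells outside the 9 genes did not move together. Of 18 listed 14 were measured. At 21 days 7 were higher and 7 lower, the median difference was -0.025, and 0 passed. Inha, the inhibin subunit that Sertoli cells also make, differed by 1.03 ± 0.63 (log2, SE), with 0.26, 0.81 and 2.03 in the pairs. Dlk1 and Pdgfra, which mark progenitors and other stromal cells as well, were lower at 21 days, by -0.78 ± 0.26 and -0.73 ± 0.18, with unadjusted limma p of 0.0236 and 0.00736. Without overlap between the ages 3 of the 14 were lower, Dlk1, Pdgfra and Igf1, against 2.98% of all genes, and 1 was higher, Vcam1, against 2.74%. The list averaged 4.72 to 4.90 at 21 days and 4.74 to 4.88 at 9 days, and 5 of the 14, Hsd3b2, Hsd17b3, Prlr, Cyp2a1 and Ces1d, were below the array median on every array. The part that other cell types of the cultures had in the differences of Akr1c14 and Hsd11b1 was not tested.

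**Figure D5:**
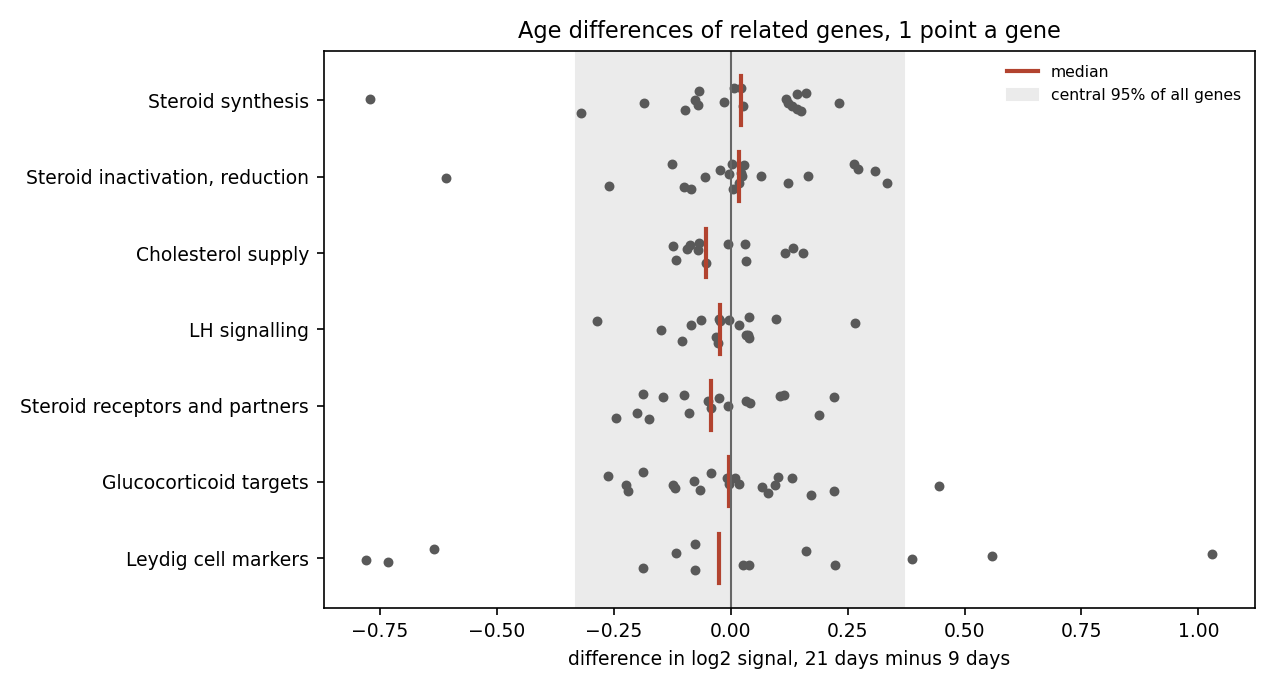
Difference in log2 signal, 21 days minus 9 days, of the genes in the 6 related lists and the Leydig cell markers, with 1 point a gene, the list's median in red and the central 95% of all genes in grey. The medians of the 7 lists lie between -0.051 and 0.021.

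Genes with the most similar pattern over the 6 arrays were sought for 4 of the genes, by Pearson correlation, as a description of arrays that share ages and replicate numbers. For Akr1c14 they were Or13a27e (r = 0.982), Cyp2c22 (0.971) and Or6c212 (0.970), whose own age differences were 0.055, 0.17 and 0.022 at signals below the 17th percentile. For Hsd11b1 they were Lyplal1 (0.991), Or4c125 (0.987) and Angptl8 (0.987), and Angptl8 differed by 1.00 between the ages, close to the 0.98 of Hsd11b1. For Star they were Slc30a1 (0.994), Mmp8 (0.993) and Ppcdc (0.983), and for Nr3c1 Mrpl42 (0.994), Nme7 (0.994) and Tmem69 (0.991). Or4c125 and Mmp8 were below the lower quartile of the array on all 6 arrays, and Ppcdc was below the array median on all 6. Among the 14506 genes, 370 correlated above 0.9 with Nr3c1, 114 with Hsd11b1, 58 with Akr1c14 and 23 with Star. With only 6 arrays such correlations are a description and no test.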

How the data were processed

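Total RNA of 6 samples of cultured cells was labelled with biotin and hybridised to Affymetrix arrays, per the labels' protocols. The authors deposited log2 values from RMA, per the submitters' processing notes, a method that corrects background, normalizes between arrays and summarises probe sets. Neither its version nor the build is given in the sources used here. Ages and replicate numbers were taken from the titles.

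Of 29214 probe sets, 15310 had 1 gene symbol in the platform annotation, 323 had several and were left out, and 13581 were unnamed. The highest-mean probe set of each gene gave 14506 genes. The difference of 21 days minus 9 days was fitted in limma 3.58.1 (R 4.3.3) with lmFit and eBayes, without covariates, and adjusted by Benjamini-Hochberg over all genes. On simulated data with the spread of these 14506 genes the fit called 68 of 100 genes changed by 1 on the log2 scale. It called 98 of 100 changed by 3. The simulated noise was independent between genes and arrays, unlike the real arrays, where those numbered 3 lay apart. These shares therefore do not tell how many true changes the real fit could miss. Tf, with a difference of 3.59, was not called in the real data. Figures used matplotlib 3.10.9.

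Deviations of same-numbered arrays from their age means correlated at 0.439, 0.549 and 0.673 across genes. These values were above the limit of 0.1, so the numbers, which come from the titles, were taken to pair the arrays. Arrays of different numbers were not compared in this way. Deviations within an age cancel out, so likeness of the arrays numbered 3 alone could also raise the other values. The check therefore cannot show that arrays numbered 1 or 2 were true pairs. The genes, 13 lists and tests were chosen with earlier results of these data known. Of 218 list entries 190 were measured. From each related list the 3 genes with the largest difference were named, and others to give a role or a level; H6pd, Hsd11b2, Tsc22d3 and the genes of the Akr1c cluster were singled out after their values had been seen. No set test was run. Alternatives were the replicate block, filters on low signal, other scalings, probe set means, all probe sets, a trended robust prior, array weights and leaving out arrays. Scan dates and detection calls were not used here.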

Additional observations from a re-analysis of the deposited data

How the results depend on the processing

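Under all 16 alternatives limma called 0 of the genes tested, 0 of the 8 steroid and Leydig cell genes and, where run for the lists, 0 list genes at an adjusted p under 0.05. Unadjusted p-values under 0.05 numbered 189 to 1122, and the lowest adjusted p over all genes lay between 0.132 and 1.00. With the replicate number as a block the differences stayed as they were, 1.59 for Akr1c14 and 0.98 for Hsd11b1, with adjusted p of 0.390 and 0.146, and it changed no call. Leaving out 1 array at a time gave 1.25 to 2.09 for Akr1c14, 0.65 to 1.29 for Hsd11b1, 0.11 to 0.21 for Cyp11a1 and 0.043 to 0.27 for Star, all in the direction of the full set. The smallest values came without 21-day-old replicate 1 (Akr1c14), 9-day-old replicate 3 (Hsd11b1) and 9-day-old replicate 2 (Cyp11a1 and Star). The sign was not stable for Cyp17a1 (-0.23 to 0.014), Lhcgr (-0.061 to 0.082), Insl3 (-0.15 to 0.15) and Nr3c1 (-0.34 to 0.25). Nr3c1 also turned with array weights (0.013) and Lhcgr with median centring (-0.0085), and the cause was not tested. Filters on low signal removed Cyp11a1, Cyp17a1 and Lhcgr with 75% of genes kept, and Akr1c14 and Insl3 as well with 50% kept, so these genes have no value there. The number of arrays and unknown background limit what can be said of Cyp11a1, Cyp17a1 and Lhcgr, and of Akr1c14 at 9 days.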

Other observations

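The probe set shared by Hsd3b3 and Hsd3b1, left out because it names both genes, was at 3.68, 3.76 and 3.53 at 21 days, against 3.23, 3.60 and 3.36 at 9 days (log2). It was higher at 21 days in each pair of arrays, was not tested, and cannot be assigned to either gene of progesterone synthesis.

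Of the 14 measured Leydig cell markers, 5 were higher at 21 days in all 3 pairs (Inha, Ces1d, Prlr, Vcam1 and Ephx1), against 10.7% of all genes, and 3 were lower in all 3 (Dlk1, Pdgfra and Igf1), against 14.4%. Vcam1, an adhesion molecule of stromal and endothelial cells too, averaged 4.02 at 21 days and 3.46 at 9 days, a difference of 0.56 ± 0.14 (log2, SE). Igf1, a growth factor, averaged 5.73 at 21 days and 6.37 at 9 days, a difference of -0.63 ± 0.15. Ephx1, an epoxide hydrolase, differed by 0.39 ± 0.20. Vcam1, Igf1 and Ephx1 each had an adjusted p of 1.00 in limma and were chosen after their values had been seen.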
